A study of Mus musculus with 8 samples.

Results

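The 42 mitosis and spindle genes are a set of named genes whose products carry a cell from entry into mitosis to its division. They were found by symbol among the 52459 genes listed in the data, all 42 were listed, and all 42 passed the filter on low values. RNA of sorted mouse regulatory T (Treg) cells, CD4+CD25hi cells of spleen and lymph nodes, was sequenced in 8 libraries, 2 for each of 4 groups. Cells of the WT and of the Stim1/2-deficient (DKO) genotype were either left unstimulated or cultured for 16 h with 1 µg/ml plate-bound anti-CD3 and anti-CD28 antibodies, which engage the T cell receptor and its CD28 costimulator. STIM1 and STIM2 are the sensors of calcium in the endoplasmic reticulum that open the CRAC channel after receptor stimulation. The mice were C57BL/6 females heterozygous for Foxp3-YFPcre, a Cre recombinase driven from the Foxp3 gene, and carried floxed alleles of Stim1 and Stim2 on both chromosomes. DKO cells were those that expressed YFPcre, and WT cells were those of the same kind of female that did not. Both genotypes thus carried the floxed alleles, and the loss of Stim1 and Stim2 cannot be told apart from expression of the Foxp3-YFPcre allele. YFP also marked DKO cells as expressing Foxp3, whereas WT cells were sorted on CD4 and CD25 without such a mark. Any part of this sorting difference in the results was not tested. Each library was made from cells pooled over several mice, and the 2 libraries of a group therefore show the spread between pools.

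Mitosis is started by CDK1 bound to cyclin B, which condenses chromosomes and sets off assembly of the spindle. Kinetochores tie the chromosomes to spindle microtubules, kinesins and Aurora kinases arrange them, and the spindle checkpoint holds back the anaphase-promoting complex (APC/C) until all are attached. Most of these genes are transcribed in G2 and M phase and are low in resting lymphocytes, so their level in a pool of cells rises with the share of cells in cycle. Treg cells of healthy mice are known to hold a larger cycling fraction than conventional T cells. In bulk RNA, fewer dividing cells and less mitotic RNA per dividing cell cannot be told apart.

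Values are normalized counts, that is, reads on a gene over the size factor of the library. The libraries held 11851853 to 16306540 reads on genes, and 1 read was worth 0.759 to 1.48 normalized counts. Log2(value + 1) was tested with limma in 1 model of the 4 groups over the 15419 genes whose mean reached 10 normalized counts. A gene was called where its Benjamini-Hochberg adjusted p lay under 0.05 and its change exceeded 1.5-fold, and log2 fold changes are DKO over WT or stimulated over unstimulated on that scale, with their standard errors (SE). Stim1 and Stim2 were not called lower in the libraries labelled DKO. Unstimulated Stim1 had 1139 and 1377 normalized counts in WT against 1538 and 1868, and Stim2 had 906 and 908 against 904 and 744 (log2 fold changes 0.44 and -0.15, limma adjusted p = 0.236 and 0.721). Counts summed over a gene do not separate a deleted exon, so that neither gene checks the labels, and "DKO" below means the libraries labelled so. All 8 Treg markers examined, among them Foxp3, Il2ra, Ctla4 and Ikzf2, were detected in every library. The unstimulated libraries shared lane 4 and the stimulated ones lane 1, so stimulation and lane cannot be told apart, whereas both genotypes lay within each lane.

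In unstimulated Treg cells, mitosis and spindle genes were lower in DKO than in WT. Their median log2 fold change was -2.30, a 4.93-fold difference, where the median of all genes tested was -0.01. All 42 had a negative log2 fold change, 23 were called lower and 0 higher, and 39 had an unadjusted p under 0.05. The shares called among the 15419 genes were 3.35% lower and 1.38% higher, and 12.4% were lower at an unadjusted p under 0.05. Both DKO libraries lay below both WT libraries for 41 of the 42, compared with 27.1% of all genes tested (26.5% lay above). With the recovered reads, edgeR called 17 of the 42 lower (2.29% of all genes) and DESeq2 30 (5.25%). The calls changed as single libraries were left out. Limma called 31 of the 42 lower without DKO replicate 1 (3.89% of all genes) and 15 without DKO replicate 2 (5.99%). It called 0 without WT replicate 3 or without WT replicate 4, where it also called few genes of any kind lower (0.0519% and 0.104%). The median of the 42 stayed between -3.10 and -1.61 in these fits.

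**Figure D1:**
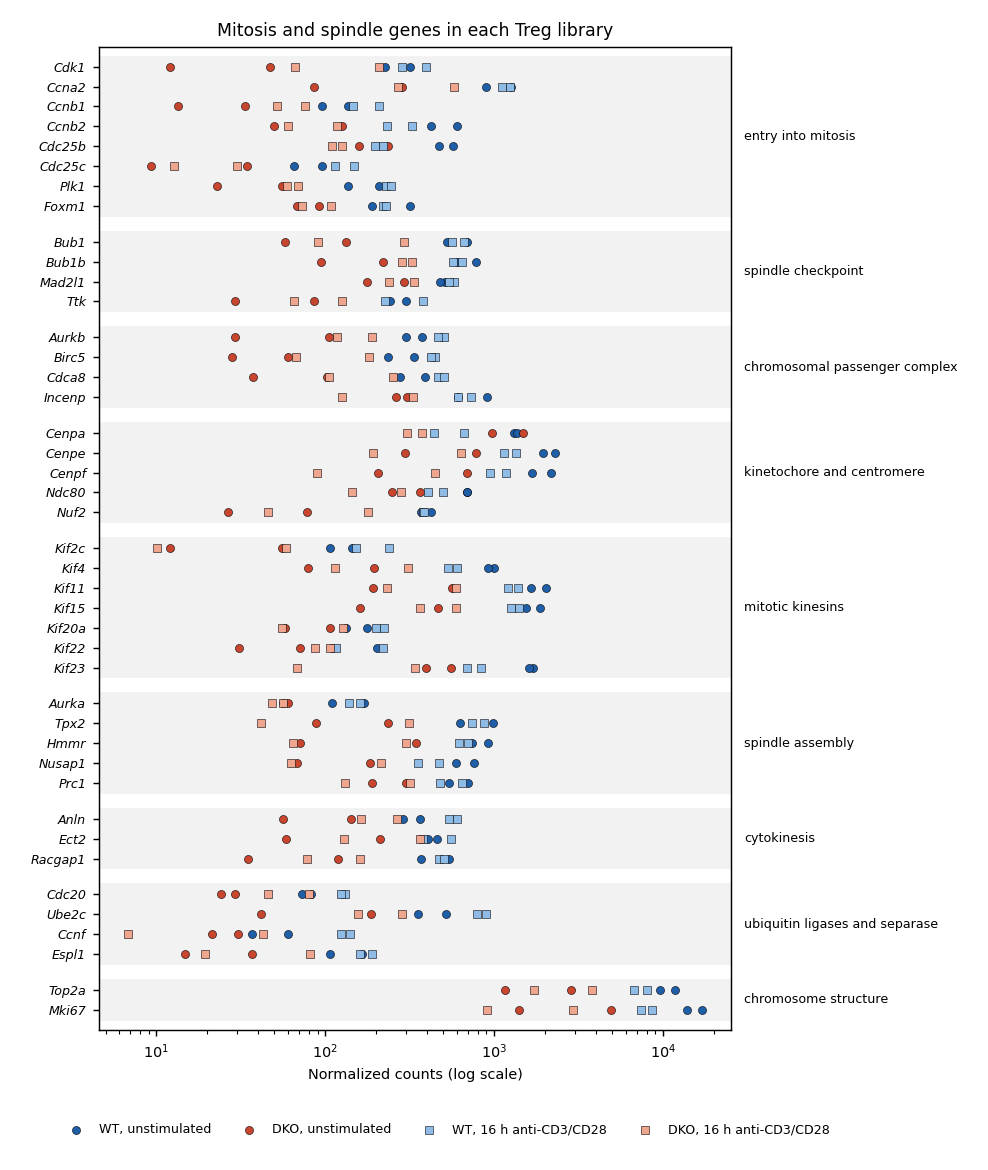
Normalized counts of each of the 42 genes (log axis) in the 8 libraries, grouped by role, with circles for unstimulated and squares for stimulated cells and blue for WT and red for DKO. Red symbols sit to the left of blue ones in almost every row, and in the row of Cenpa the unstimulated circles overlap.

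Among the genes of entry into mitosis, 7 of 8 were called lower, with a median log2 fold change of -2.29. Cdk1, the kinase that starts mitosis, had 319 and 225 normalized counts in the unstimulated WT libraries and 47.2 and 12.02 in the DKO libraries. Both DKO libraries lay far below both WT libraries, and its log2 fold change of -3.42 (SE 0.64, limma adjusted p = 0.0201) was the largest of the 42. The DKO mean was 10.9% of the WT mean, and DKO replicate 2 rested on 9 reads. Ccna2, which encodes the cyclin of S and G2 phase, fell from a mean of 1075 to 185 (log2 fold change -2.76, SE 0.50). The B-type cyclins Ccnb1 and Ccnb2, the partners of CDK1, were called with log2 fold changes of -2.38 and -2.67. Plk1, a kinase that acts at centrosomes and kinetochores, had -2.21, and Foxm1, the transcription factor of G2 and M phase genes, had -1.62. Cdc25b and Cdc25c encode phosphatases that remove the inhibitory phosphates from CDK1. Cdc25b was called with -1.41 (SE 0.28, limma adjusted p = 0.0241). Cdc25c was the one member of its group that was not, at 96.04 and 65.00 normalized counts in WT against 34.6 and 9.35 in DKO. Its groups did not overlap, but the log2 fold change of -2.06 had an SE of 0.63 and a limma adjusted p of 0.094, and in DKO replicate 2 it rested on 7 reads.

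In the spindle checkpoint, which delays anaphase until every kinetochore is attached, 3 of 4 genes were called lower. Bub1, a checkpoint kinase at kinetochores, had 687 and 523 normalized counts in WT and 132 and 57.4 in DKO libraries. The libraries of the genotypes were well apart, with a log2 fold change of -2.77 (SE 0.52, limma adjusted p = 0.0201). Bub1b, which encodes the APC/C inhibitor BUBR1, had the smallest adjusted p of the 42 (log2 fold change -2.24, SE 0.35, limma adjusted p = 0.0115). Ttk, the kinase MPS1 that recruits the checkpoint proteins, had -2.40. Mad2l1, which encodes MAD2, was measured at 512 and 477 in WT and 294 and 178 in DKO. Its DKO libraries also lay below the WT libraries, and with -1.11 (SE 0.28, limma adjusted p = 0.0554) it just missed the threshold.

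The chromosomal passenger complex, which corrects faulty attachments and later directs cytokinesis, had 3 of its 4 genes called lower. Aurkb, its kinase, had 372 and 299.9 normalized counts in WT and 105 and 29.4 in DKO libraries. The lower WT library was still more than 2-fold above the higher DKO library, and the log2 fold change was -2.56 (SE 0.50, limma adjusted p = 0.0231). Birc5, which encodes survivin, and Cdca8, which encodes borealin, had -2.74 and -2.38. Incenp, the scaffold of the complex, was not called, at 902 and 607 in WT against 303 and 263 in DKO. Its DKO libraries lay close together and below WT, with -1.39 (SE 0.40, limma adjusted p = 0.0778).

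Kinetochore and centromere genes were divided. Cenpa, which encodes the histone H3 variant that marks centromeres, had 1307 and 1374 normalized counts in WT libraries and 967 and 1481 in DKO libraries. Here the genotypes overlapped, DKO replicate 2 was the highest of the 4, and the log2 fold change was -0.16 (SE 0.27, limma adjusted p = 0.774). It ranged from -0.47 to 0.14 as single libraries were left out, and was 0.14 without DKO replicate 1. Nuf2, a subunit of the NDC80 complex that grips microtubules, had 422 and 371 in WT and 77.6 and 26.7 in DKO. That difference, -3.09 (SE 0.60, limma adjusted p = 0.0236), was the second largest of the 42. Its partner Ndc80 had 686 and 693 in WT and 249.6 and 362 in DKO. The groups of Ndc80 were apart as well, but DKO replicate 2 was the higher of its pair, and at -1.20 (SE 0.33, limma adjusted p = 0.0683) it was not called. Cenpe, a kinesin that moves chromosomes to the spindle equator, was called narrowly with -2.13 (SE 0.53, limma adjusted p = 0.049) and in 2 of the 9 other fits of all or of the 4 unstimulated libraries. Cenpf, a large protein of the outer kinetochore, had -2.33 (SE 0.68) and was not called.

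Of the 7 mitotic kinesins, motors that move on or take apart microtubules, 3 were called lower. Kif2c, the microtubule depolymerase MCAK, had 144 and 106 normalized counts in WT and 55.6 and 12.02 in DKO. The DKO libraries differed widely from each other, and the log2 fold change of -2.20 carried an SE of 0.81 (limma adjusted p = 0.149). Kif4, a motor on chromosome arms, had 996 and 923 in WT and 194 and 78.8 in DKO. It was called with -2.94 (SE 0.48, limma adjusted p = 0.0129), the third largest difference. Kif11 and Kif15, the motors that push spindle poles apart, were called with -2.49 and -2.63. Kif20a, which carries the passenger complex to the central spindle, had 176 and 133 in WT and 107 and 57.4 in DKO. Its groups lay apart, but the log2 fold change was the third smallest of the 42, and -0.95 (SE 0.44, limma adjusted p = 0.238) was not called. Kif22, a chromosome-bound motor, and Kif23, the motor subunit of centralspindlin, had -1.64 and -1.82 and were not called either.

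Among spindle assembly genes, 1 of 5 was called lower, although their median of -2.39 was close to that of all members. Aurka, the Aurora kinase of spindle poles, had 169 and 109 normalized counts in WT and 59.8 and 56.1 in DKO libraries. The DKO libraries were alike and below WT, with -1.22 (SE 0.35, limma adjusted p = 0.0763). Nusap1, which bundles microtubules near chromosomes, was the gene called, at 761 and 595 in WT and 184 and 68.1 in DKO. Those groups did not overlap, and the log2 fold change was -2.58 (SE 0.56, limma adjusted p = 0.0335). Tpx2, the activator of Aurora A, and Hmmr, a protein of spindle microtubules, had similar differences, -2.45 and -2.39, with SEs of 0.76 and 0.74. Prc1, which crosslinks the central spindle, had -1.36.

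Of the cytokinesis genes, 2 of 3 were called lower. Anln, which encodes the contractile ring scaffold anillin, had 365 and 288 normalized counts in WT and 142 and 56.1 in DKO. It was lower in both DKO libraries, with a log2 fold change of -1.85 (SE 0.41, limma adjusted p = 0.0356), and 4 of the 9 other fits called it. Racgap1, the partner of Kif23 in centralspindlin, had -2.77 (SE 0.53, limma adjusted p = 0.0213). Ect2, the exchange factor that activates RhoA at the cleavage site, had 459 and 408 in WT against 211 and 58.8 in DKO. WT and DKO did not overlap, yet its -1.95 (SE 0.58, limma adjusted p = 0.0875) was not called.

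The genes of protein destruction and of separase were the group without a called gene: limma called 0 of 4, and 3 of 4 had an unadjusted p under 0.05. On the recovered reads DESeq2 called 2 of the 4 and edgeR 0. Cdc20, the activator of the APC/C, had 82.02 and 72.4 normalized counts in WT and 29.4 and 24.04 in DKO. Both pairs were tight and apart, and the log2 fold change was -1.5 (SE 0.40, limma adjusted p = 0.0616). Ube2c, the ubiquitin-conjugating enzyme of the APC/C, had -2.27 (limma adjusted p = 0.0514), and Espl1, which encodes separase, the protease that cuts cohesin at anaphase, had -2.46 (limma adjusted p = 0.0591). Ccnf, an F-box protein of another ubiquitin ligase, had 60.4 and 36.9 in WT against 30.4 and 21.4 in DKO. The lower WT and the higher DKO library nearly met, and -0.86 (SE 0.71, limma adjusted p = 0.52) was second only to Cenpa among the smallest differences.

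Both genes of chromosome structure were called lower, and they were the most abundant members. Top2a, the topoisomerase that untangles sister chromatids, had 11728 and 9585 normalized counts in WT and 2845 and 1154 in DKO libraries. The difference was -2.55 (SE 0.42, limma adjusted p = 0.0142). Mki67, which encodes the chromosome coat protein Ki-67 that is used to mark cycling cells, had 17091 and 13862 in WT and 4924 and 1399.7 in DKO. Its means were 15476 ± 2283 and 3162 ± 2492 (SD, n = 2 each), a log2 fold change of -2.55 (SE 0.57, limma adjusted p = 0.0369). For both genes every DKO library lay below every WT library.

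**Figure D2:**
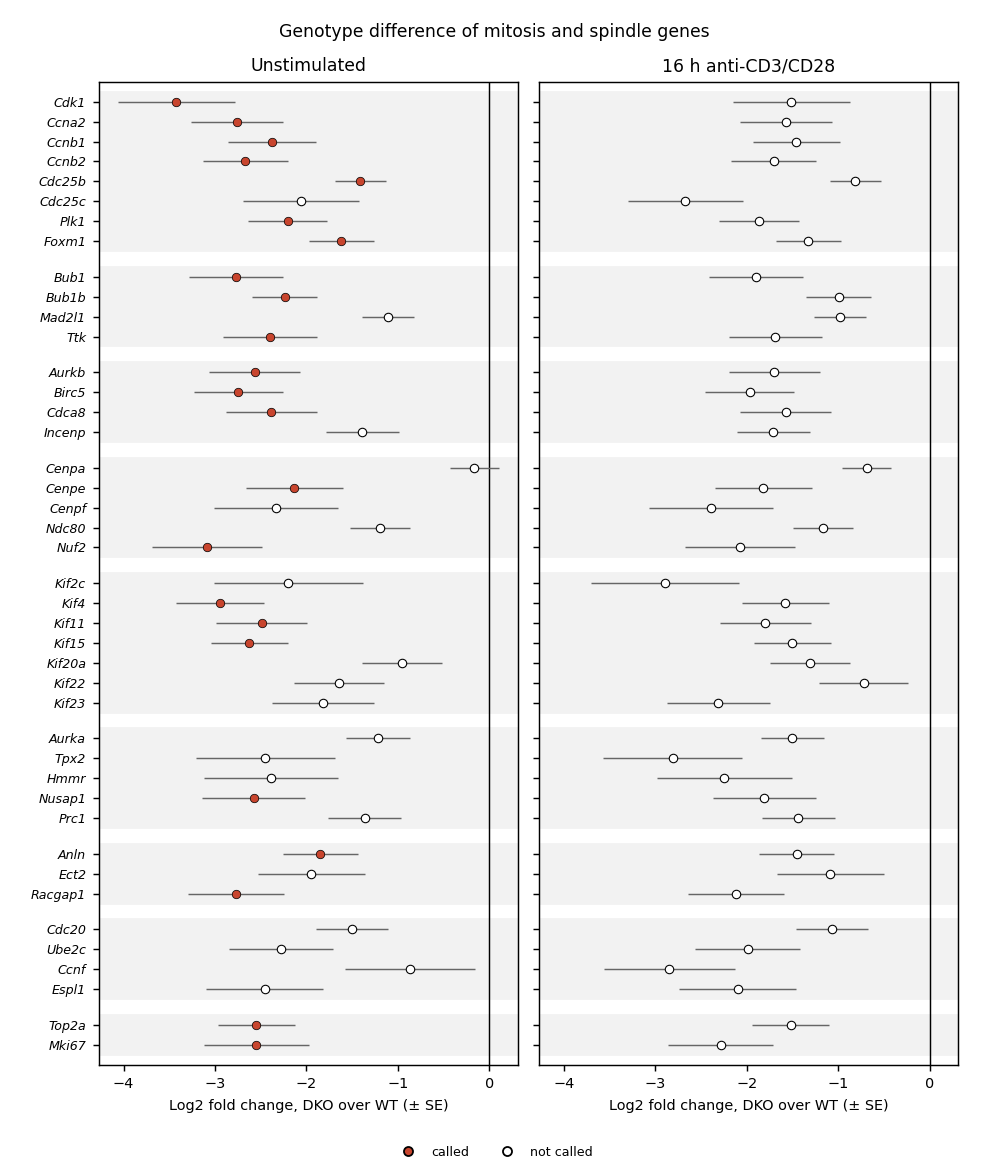
Log2 fold change of DKO over WT for each of the 42 genes in unstimulated (left) and stimulated cells (right), with limma standard errors as lines and filled points for called genes. Every point on both panels lies to the left of 0, 23 on the left panel and none on the right are filled, and the median moves from -2.30 to -1.69.

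Markers of other cells moved with genotype in the unstimulated libraries. The summed level of 9 macrophage markers was 253 and 299.9 normalized counts in WT and 9605 and 1539.9 in DKO libraries, and C1qa and C1qc were at 0 reads in both WT libraries, while none of the 9 was at 0 in DKO. For 8 B cell markers, none of which was at 0 in any library, the sums were 287 and 338 in WT and 3193 and 763 in DKO. Those of 8 neutrophil markers were 256 and 142 in WT, with Elane at 0 in replicate 4, and 1226 and 544 in DKO. The 7 CD8 T and NK cell markers, none at 0, summed to 489 and 456 in WT and 1192 and 355 in DKO and overlapped. DKO replicate 1 had the higher sum in each of these lists. It was also the higher of the 2 DKO libraries for 39 mitotic genes and the lower for 3. Leaving it out thus enlarged their genotype difference (median -3.10) whatever the marker levels were, so that median does not test the cell mixture. Other lists were lower in DKO or overlapped. The 7 plasma cell markers summed to 7539 and 6943 in WT, with Tnfrsf17 at 0, and 4042 and 3744 in DKO. Treg cells also express some of them (Irf4, Prdm1 and Xbp1). By gene they were divided: 4 of the 6 tested had negative log2 fold changes and 2 positive ones. Prdm1 and Irf4 were called lower and Jchain was called higher (3.35% and 1.38% of all genes). The 5 germinal centre B cell markers summed to 1881 and 1981 in WT, with Mef2b at 0 in both, and 1119.9 and 1862 in DKO, and the 9 erythroid markers to 2580.2 and 2421 in WT and 1438 and 2567 in DKO, with Hba-a1 at 0 in all 4 libraries. In the last 2 lists DKO replicate 1 had the lower sum. The 8 Treg markers summed to 99893 and 92919.7 in WT and 46103 and 53483 in DKO, and Foxp3 itself had 10000.5 and 8159 against 4947 and 4258 (log2 fold change -0.98, limma adjusted p = 0.0591). The part of a different cell mixture in the genotype difference of the mitotic genes was not tested.

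Most mitosis genes are bound near their start by the MuvB complex, which represses them in resting cells with the pocket proteins p107 and p130 (as DREAM) and activates them in G2 with B-MYB and FOXM1. MuvB binds through its LIN54 subunit to the cell cycle genes homology region (CHR), spelled TTTGAA or less often TTTAAA, and NF-Y binds CCAAT boxes upstream of it. RefSeq promoters of build GRCm38.p6, from 250 bases before to 50 after each start, were given for 35 of the 42 genes. Both strands were searched for the CHR as TTTGAA, for its variant with the letters TTTAAA, for the CCAAT box, and for the cores of E2F sites, which were taken as TTCCCGC or as TTGGCGC. None of these motifs contains another, but TTGGCGC can share bases with CCAAT read on the other strand. Below are stretches of 150 bases, from 100 before to 50 after the start, for Ccnb2 and Plk1 of mitotic entry, Cdc20 of mitotic exit, the centralspindlin pair Racgap1 and Kif23, and Cenpa, whose genotypes overlapped in unstimulated cells. They were chosen with their values and motifs known, as examples among genes called lower, genes not called and Cenpa. Each was picked to hold TTTGAA and an upstream CCAAT box, at spacings that differ, so they do not show how common this is. Capitals mark TTTGAA and CCAAT on either strand (CCAAT on the other strand reads ATTGG).
Ccnb2 (chr9:70421505-70421654, minus strand): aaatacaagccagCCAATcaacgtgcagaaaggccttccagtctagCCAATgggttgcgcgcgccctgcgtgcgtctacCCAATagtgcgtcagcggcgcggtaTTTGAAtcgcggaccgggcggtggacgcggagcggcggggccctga
Cdc20 (chr4:118437294-118437443, minus strand): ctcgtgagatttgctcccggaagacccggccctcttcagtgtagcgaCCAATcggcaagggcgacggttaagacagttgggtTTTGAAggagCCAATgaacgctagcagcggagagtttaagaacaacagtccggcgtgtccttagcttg
Plk1 (chr7:122159335-122159484, plus strand): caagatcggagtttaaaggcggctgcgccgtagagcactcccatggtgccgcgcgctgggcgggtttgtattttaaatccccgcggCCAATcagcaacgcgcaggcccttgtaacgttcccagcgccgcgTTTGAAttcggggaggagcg
Racgap1 (chr15:99651607-99651756, minus strand): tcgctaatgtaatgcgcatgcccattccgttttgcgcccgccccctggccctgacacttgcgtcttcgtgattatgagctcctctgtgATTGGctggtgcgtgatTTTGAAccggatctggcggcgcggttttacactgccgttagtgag
Kif23 (chr9:61946750-61946899, minus strand): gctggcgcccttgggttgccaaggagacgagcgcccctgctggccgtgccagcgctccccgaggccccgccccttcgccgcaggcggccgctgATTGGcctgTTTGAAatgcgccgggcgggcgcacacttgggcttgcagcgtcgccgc
Cenpa (chr5:30666786-30666935, plus strand): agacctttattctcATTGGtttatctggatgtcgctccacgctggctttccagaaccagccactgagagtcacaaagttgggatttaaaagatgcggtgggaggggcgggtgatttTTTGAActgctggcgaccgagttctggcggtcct

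In these stretches TTTGAA began at base 4 for Ccnb2, 18 bases before the start for Cdc20, at base 30 for Plk1, at base 5 for Racgap1, at base 2 for Kif23 and at base 16 for Cenpa, with bases counted from the start, and each had a CCAAT box upstream of it. TTTGAA stood in 27 of the 35 promoters (77.1%), in 25 of them within 50 bases of the start, compared with 17.9% of all 32851 promoters in the table and 14.9% of those of the 9882 tested genes it holds. The variant TTTAAA stood in 9 (25.7%, against 11.3% of tested genes) and CCAAT in 27 (77.1%, against 42.7%), and 23 had both TTTGAA and CCAAT. The E2F core TTCCCGC stood in 0 of 35 (9.80% of tested genes) and TTGGCGC in 5 (14.3%, against 4.92%). The 8 promoters without TTTGAA were those of Ccnb1, Cdc25b, Bub1, Mad2l1, Birc5, Cenpe, Nuf2 and Nusap1, and Mad2l1, Nuf2 and Nusap1 had neither CHR spelling nor a CCAAT box in this window. The 27 genes with TTTGAA had a median log2 fold change of -2.27 in unstimulated cells, with 13 called, and the 8 without it a median of -2.48, with 7 called. A match of these letters is a description of the sequence, and binding was not measured.

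**Figure D3:**
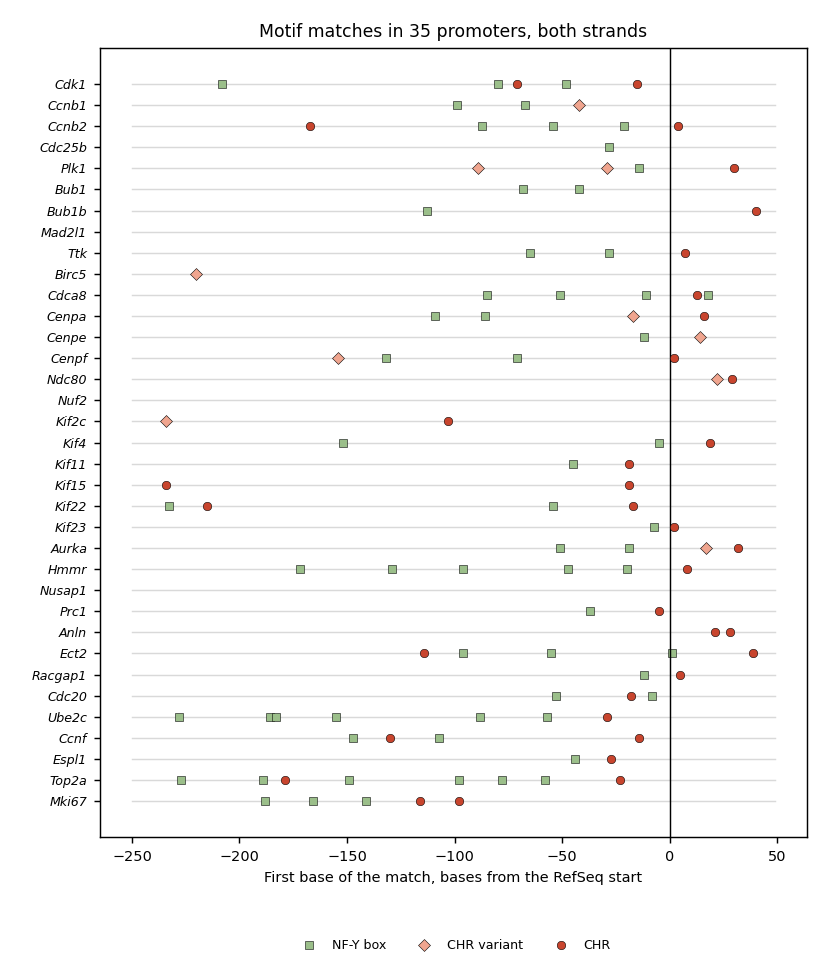
First base of each match to TTTGAA (CHR), TTTAAA (CHR variant) and CCAAT (NF-Y box) in the 35 promoters, on an axis of bases from the RefSeq start. CHR matches gather within 50 bases of the start, with CCAAT boxes mostly to their left.

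After stimulation, mitosis and spindle genes were again lower in DKO, by a smaller median, but limma called none of them. Their median log2 fold change was -1.69 (3.23-fold), against 0.02 for all genes tested, and all 42 had a negative value. In limma 0 of 42 were called in either direction, against 0.11% of all genes called lower and 0.162% higher. At an unadjusted p under 0.05, 40 of the 42 were lower, compared with 7.38% of all genes. Both DKO libraries lay below both WT libraries for all 42, compared with 23.1% of all genes tested (24.3% lay above). With the recovered reads DESeq2 called 23 of the 42 lower (1.86% of all genes) and edgeR 0 (0%). With single libraries left out, the median of the 42 ran from -2.19 (without DKO replicate 1) to -1.10 (without DKO replicate 2). DKO replicate 1 was the higher of the 2 DKO libraries for 41 of the 42, so leaving it out enlarged the difference.

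The differences in stimulated cells were widest for Kif2c, Ccnf and Tpx2, each with a large spread between the DKO libraries. Kif2c had 153 and 238 normalized counts in stimulated WT libraries and 58.8 and 10.1 in DKO. It was lower in both, with a log2 fold change of -2.89 (SE 0.81, limma adjusted p = 0.147). Ccnf, which had nearly overlapped in unstimulated cells, had 123 and 140.5 against 42.9 and 6.75. Its DKO value in replicate 2 rested on 8 reads, and the log2 fold change was -2.85 (SE 0.71, limma adjusted p = 0.114). Tpx2 had 876 and 744 against 314 and 41.4. Again DKO replicate 2 was the lowest, with -2.81 (SE 0.76, limma adjusted p = 0.137).

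The narrowest differences were those of Cenpa, Kif22 and Cdc25b. Cenpa had 443 and 665 normalized counts in stimulated WT libraries and 304 and 372 in DKO. Unlike in unstimulated cells its groups did not overlap, and the log2 fold change was -0.69 (SE 0.27, limma adjusted p = 0.284). Kif22 had 219.8 and 116 against 107 and 86.96, with the lower WT library close to the higher DKO one, and -0.72 (SE 0.49). Cdc25b had 196 and 219 against 125 and 109.8, a small step between tight pairs (-0.82, SE 0.28, limma adjusted p = 0.217).

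The log2 difference was smaller than in unstimulated cells for 31 of the 42 genes and larger for 11, among them Aurka, Cdc25c, Incenp and Kif23. Cdk1 had 396 and 285 normalized counts in stimulated WT and 208 and 65.8 in DKO libraries. Its lower WT library exceeded its higher DKO library by less than before, and the log2 fold change was -1.51 (SE 0.64, limma adjusted p = 0.328). Mki67 had 8559.9 and 7417 against 2925 and 913, with -2.29 (SE 0.57, limma adjusted p = 0.116). Top2a had 7999.5 and 6721 against 3806 and 1716, with -1.52. Aurkb had -1.70, Bub1 -1.90, Anln -1.45 and Cdc20 -1.07 on the same scale. The smallest adjusted p of the 42 belonged to Aurka, at 139 and 160.2 in WT and 56.4 and 48.1 in DKO, whose pairs were narrow (-1.5, SE 0.35, limma adjusted p = 0.0944). In these libraries the macrophage markers summed to 242 and 151 in WT and 307 and 278 in DKO, with C1qa and Mrc1 at 0 in all 4, and the B cell markers to 933 and 172 in WT and 1421 and 308 in DKO, which overlapped. Germinal centre B cell markers were higher in both DKO libraries (924 and 1064, against 627 and 407 in WT), with Gcsam and Mef2b at 0 in all 4. Treg markers were lower in both (72781 and 91359.9, against 99326 and 117886). The sums of plasma cell, neutrophil and CD8 T and NK cell markers overlapped between the genotypes. Those of erythroid markers were lower in DKO (5628 and 4057, against 6808 and 5915, with Hba-a2 at 0 in all 4). By gene the erythroid list was divided. Of the 3 tested, Alas2 and Tfrc were lower in both DKO libraries, and Hbb-bs was higher in both. The part of these differences in the result was not tested.

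Over both states, the 4 WT libraries all lay above the 4 DKO libraries for 38 of the 42 genes, the exceptions being Cdc25b, Cenpa, Cdc20 and Ccnf. Of all genes tested, 721 of 15419 (4.68%) had that order. Reads on the 42 genes made up 3203 and 2604 of every 1000000 reads on genes in unstimulated WT libraries and 1059 and 469.7 in DKO. After stimulation they made up 3143 and 2725 of every 1000000 in WT and 1322 and 588 in DKO. The 2 states were thus close within a genotype on this scale, and the genotypes did not overlap. As normalized counts, the 42 genes summed to 56365 and 45596 in unstimulated WT and 38070 and 33696 in stimulated WT, without overlap. In DKO these sums were 16475 and 7872, then 16528 and 7140.

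**Figure D4:**
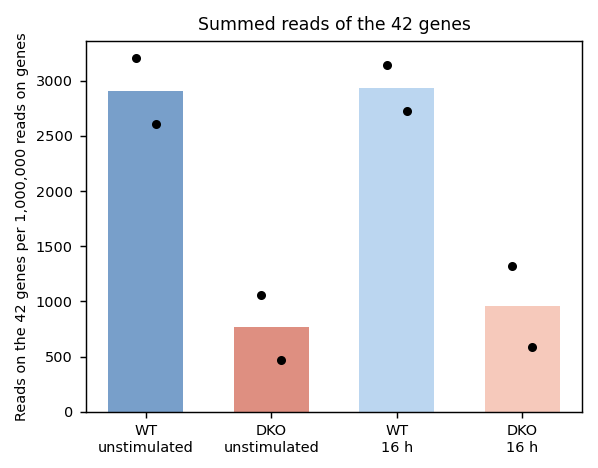
Reads on the 42 genes per 1000000 reads on genes in each library (points) and their group means (bars, from 0), for 2 libraries per group. The WT libraries lie between 2604 and 3203 and the DKO libraries between 469.7 and 1322.

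The libraries of a genotype also differed from each other in the same direction across most members. DKO replicate 1 exceeded replicate 2 in 39 of 42 genes in unstimulated cells (median 2.48-fold) and in 41 of 42 in stimulated cells (median 2.27-fold). The exceptions were Cenpa, Ndc80 and Kif23 in the first and Cenpa in the second. In unstimulated WT, replicate 3 exceeded replicate 4 in 40 of 42 (median 1.31-fold), again with Cenpa and Ndc80 as exceptions, and in stimulated WT replicate 1 exceeded replicate 2 in 29 (median 1.13-fold). Over all genes tested, the median log2 difference between the libraries of a group lay between -0.01 and 0.04. The members thus share much of their spread, and their number is no measure of how many independent observations the genotype difference has, which is 2 libraries against 2.

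In WT Treg cells the 42 genes moved in both directions with 16 h of stimulation. The median log2 fold change was 0.06, with 23 genes above 0 and 19 below. Limma, edgeR and DESeq2 each called 2 of 42 lower and 0 higher, where in limma 13.1% of all genes were called lower and 10.2% higher. At an unadjusted limma p under 0.05 there were again 2 lower and 0 higher (19.8% and 17.7% of all genes). With the 4 WT libraries fitted alone, limma called 10 of the 42 lower and 3 higher (17.8% and 15% of all genes). Both stimulated libraries lay below both unstimulated ones for 14 of the 42 and above for 13, compared with 36% and 35% of all genes. The called genes were Cdc25b and Cenpa. Cdc25b, the CDK1-activating phosphatase, went from 569 and 469.8 normalized counts to 196 and 219, and both stimulated libraries were far below both others (-1.31, SE 0.28, limma adjusted p = 0.00932). Cenpa went from 1307 and 1374 to 443 and 665, also without overlap (-1.30, SE 0.27, limma adjusted p = 0.00843). No more than 1 of the 42 was called by limma when any 1 of these 4 libraries was left out, in fits that called 3.76% to 5.47% of all genes lower, and with libraries rescaled to equal totals, which moved the median of all genes by 0.51, the median of the 42 was 0.58.

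By role, all 5 kinetochore and centromere genes had negative values in WT cells, with a median of -0.77 and 4 of them without overlap, and both genes of chromosome structure had a median of -0.74. All 4 genes of ubiquitin ligases and separase (median 0.85) and all 3 of cytokinesis (median 0.12) had positive values. The largest difference in WT cells was that of Ccnf, from 60.4 and 36.9 to 123 and 140.5. Both stimulated libraries were higher, but with 1.46 (SE 0.71, limma adjusted p = 0.164) it was not called. The smallest differences were those of Bub1, Tpx2 and Nuf2. Bub1 went from 687 and 523 to 662 and 564 (0.03, SE 0.52), Tpx2 from 989.6 and 631 to 876 and 744 (0.03, SE 0.76) and Nuf2 from 422 and 371 to 379 and 386 (-0.05, SE 0.60), and the libraries of each overlapped between the states.

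In DKO Treg cells the median log2 fold change with stimulation was 0.40, with 28 genes above 0 and 14 below. Limma called 3 of 42 higher and 1 lower, against 13% and 12% of all genes, and 10 lay above and 3 below without overlap (30.8% and 30.6% of all genes). Cdk1 rose from 47.2 and 12.02 normalized counts to 208 and 65.8, so that both stimulated libraries exceeded both others (2.24, SE 0.64, limma adjusted p = 0.0284). Ccnb1, its cyclin partner, rose from 33.5 and 13.4 to 76.2 and 51.5 (1.52, SE 0.48, limma adjusted p = 0.0423). Bub1b, of the checkpoint, rose from 219 and 94.8 to 326 and 283 and just passed the threshold (1.07, SE 0.35, limma adjusted p = 0.0498). Each of these 3 was apart between the states. Cenpa fell from 967 and 1481 to 304 and 372, the lowest values of its 4 groups (-1.83, SE 0.27, limma adjusted p = 0.00165). The number called higher depended on the fit. DESeq2 called 8 of the 42 higher (13.1% of all genes) and edgeR 1 (12.2%), and limma called 14 with a replicate block (15.6%), 9 with equal totals (24.6%) and 0 with the DKO libraries alone (5.71%). The share of the 42 called higher thus lay above that of all genes with the block and below it in the fit reported here. Limma called 16 higher without unstimulated replicate 1 (13.8% of all genes), 6 without stimulated replicate 2 (8.95%), and 0 without unstimulated replicate 2 (10.2%) or without stimulated replicate 1 (7.76%), where 6 were called lower (9.1%).

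Other DKO changes were not called. Kif23 went from 397 and 554 normalized counts to 341 and 68.4, without overlap (-1.61, SE 0.56, limma adjusted p = 0.0588), and Aurkb from 105 and 29.4 to 189.8 and 117 (1.41, SE 0.50, limma adjusted p = 0.0632). The smallest were those of Nusap1, Kif2c and Ccnb2, whose libraries overlapped. Nusap1 went from 184 and 68.1 to 213 and 62.5 (0.04), Kif2c from 55.6 and 12.02 to 58.8 and 10.1 (-0.07) and Ccnb2 from 125 and 49.4 to 117 and 59.9 (0.09). By role, the 4 genes of the spindle checkpoint had a median of 0.86, all positive, and those of the chromosomal passenger complex 1.39, with 3 of 4 positive and without overlap, whereas 4 of 5 kinetochore genes were negative (median -0.58). After stimulation macrophage markers fell in DKO, from sums of 9605 and 1540 to 307 and 278. Limma called 8 of the 9 lower (12% of all genes). In WT the sums were 253 and 299.9, then 242 and 151. The DKO sums of B cell, neutrophil, and CD8 T and NK cell markers overlapped between states. Those of Treg, plasma cell and erythroid markers were higher after stimulation, and germinal centre B cell ones lower. By gene, each of these lists was divided. Limma called Il2ra, Xbp1, Prdm1, Irf4 and Tfrc higher and Cd4, Cd3g, Hbb-bs and Bcl6 lower (13% and 12% of all genes). Jchain and Mzb1 had negative values, and the other germinal centre markers tested had positive ones. In WT cells the plasma cell and erythroid sums also rose, and the germinal centre sum also fell. The part of cell mixture in the stimulation responses was not tested.

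**Figure D5:**
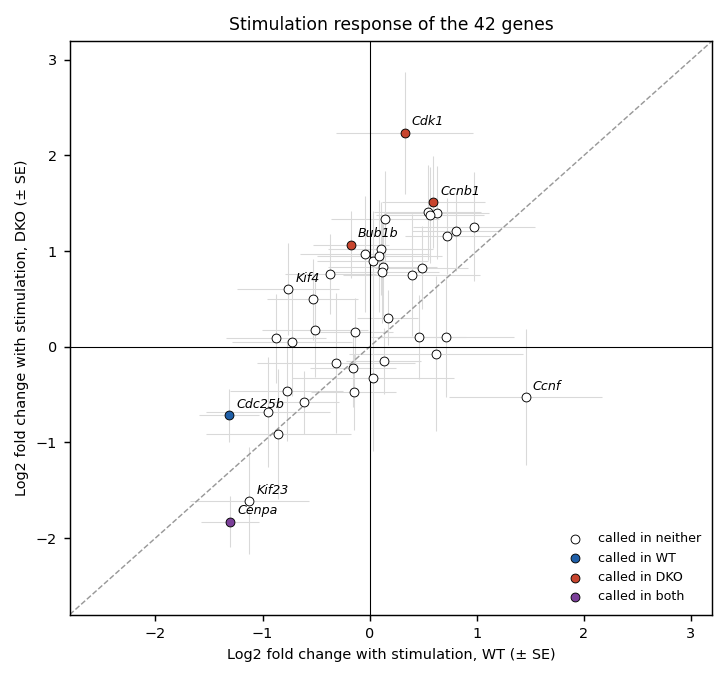
Log2 fold change with stimulation in WT (horizontal) and DKO cells (vertical) for each of the 42 genes, with limma standard errors as lines, the diagonal of equal change dashed, and colour for the genotype in which a gene was called. Cdk1, Ccnb1 and Bub1b lie above the diagonal, Cenpa lies at the lower left in both genotypes, and the difference between the genotypes was not called for any gene.

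Whether stimulation acted differently in the genotypes was tested as an interaction, the DKO change minus the WT change. Its median was 0.41, with 31 genes above 0 and 11 below, against 0.05 for all genes. Limma called 0 of 42 (and 0% of all genes in either direction), with 1 higher at an unadjusted p under 0.05 (4.6% of all genes), and edgeR and DESeq2 also called 0 of 42, at backgrounds of 0% for edgeR and of 0.0843% lower and 0.221% higher for DESeq2. The 2 stimulation contrasts thus gave different calls for Cdk1, Ccnb1, Bub1b and Cdc25b without a called difference between them. The largest values were -1.98 for Ccnf (SE 1.01, limma adjusted p = 0.63), 1.91 for Cdk1 (SE 0.90, limma adjusted p = 0.625) and 1.37 for Kif4 (SE 0.68, limma adjusted p = 0.625). Kif4 went from 996 and 923 normalized counts to 603 and 530.0 in WT and from 194 and 78.8 to 309.7 and 115 in DKO, with overlap in DKO. The smallest were those of Ndc80 (0.03), Cenpf (-0.06) and Prc1 (-0.07), with SEs of 0.46, 0.96 and 0.57.

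The order of the 4 group means was WT stimulated, WT unstimulated, DKO stimulated and DKO unstimulated for 19 genes, among them Cdk1, Ccnb1 and Plk1. For 10 it was the same with the WT states exchanged, as for Top2a, and for 9 both genotypes had their unstimulated mean above their stimulated one, as for Mki67, Cenpf and Kif23. For 3, namely Cdc25c, Aurka and Ccnf, the stimulated mean was the higher one in WT and the lower one in DKO. For Cenpa alone both unstimulated means lay above both stimulated ones. The libraries of the 2 states overlapped for 15 of the 42 genes in WT and for 29 in DKO (29.0% and 38.6% of all genes), so that the order of the states is within their spread for most genes in DKO.

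Other genes of mitosis, from lists of 125 genes of which 124 were tested, also tended to be lower in unstimulated DKO cells, by less. Of the 124, 106 had a negative log2 fold change, 24 were called lower and 0 higher (3.35% and 1.38% of all genes), and the median was -0.91. DESeq2 called 42 of the 124 lower (5.25% of all genes) and edgeR 15 (2.29%). Other spindle and cytokinesis genes were nearest to the members, with all 25 negative, 7 called and a median of -1.76. In that list Shcbp1, a partner of centralspindlin, had -2.48, Kif14, a kinesin of cytokinesis, -2.19 and Stil, a centriole assembly factor, -2.10. Of 32 other kinetochore genes 4 were called lower (median -1.04), led by Ska1, a subunit of the SKA complex at the microtubule interface. Ska1 had 74.5 and 75.3 normalized counts in WT and 10.5 and 1.34 in DKO (-3.87, SE 0.76, limma adjusted p = 0.0236). In DKO replicate 2, where 1 read was worth 1.34 normalized counts, it rested on 1 read, so the size of its change is uncertain. Kntc1 and Spdl1, of the dynein-recruiting machinery of kinetochores, had -2.56 and -2.04. Of 14 other kinases, phosphatases and cyclin partners 4 were called, with -2.76 for the kinase gene Pbk, -2.10 for Cks1b, a CDK subunit, and -1.97 for the kinase gene Melk. In the checkpoint and shugoshin list 1 of 8 was called, Haspin, the histone H3 kinase that places the passenger complex at centromeres (-1.80).

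Condensin and cohesin genes had a smaller median, -0.37, with 7 of 18 called lower. The cohesin acetyltransferase gene Esco2 (-2.77), the cohesin-protecting Cdca5 (-2.72) and the condensin subunit gene Ncapg (-2.45) had the largest of the called changes. In contrast to Cdc20 and Ube2c, the core subunits of the APC/C, which cells make throughout the cycle, had a median of -0.23, closer to that of all genes (-0.01). Limma called 0 of the 15, 2 had an unadjusted p under 0.05, and edgeR and DESeq2 called 0. The largest change among them was that of Anapc13, with -0.86 (SE 0.34, limma adjusted p = 0.172). Of 12 genes of MuvB, MYB and the pocket proteins 1 was called, Tfdp1, the dimer partner of E2F factors (-1.30, limma adjusted p = 0.0369). The median was -0.16 and the lowest value, not called, was -2.18. At an unadjusted limma p under 0.05, 5 of the 12 were lower (12.4% of all genes). DESeq2 called 2 lower (5.25%) and edgeR 0 (2.29%). TTTGAA stood in 13 of 21 promoters of the other spindle and cytokinesis genes (61.9%), 7 of 14 of condensin and cohesin genes (50%), 12 of 28 of other kinetochore genes (42.9%), 3 of 9 of the MuvB list (33.3%), 3 of 10 of other kinases and cyclin partners (30%), 2 of 8 of the checkpoint list (25%) and 2 of 14 of the APC/C core (14.3%). These shares did not follow the order of the lists' medians. In stimulated cells 105 of the 124 were negative with a median of -0.67. Limma called 0 of them (0.11% of all genes lower and 0.162% higher), with 53 lower at an unadjusted p under 0.05 (7.38%). DESeq2 called 22 lower (1.86%) and edgeR 0 (0%).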

How the data were processed

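Gene expression was measured by RNA sequencing of Treg cells in 8 libraries, grouped by the genotype and stimulation given in their labels. The authors deposited signal values, namely the reads counted on each gene over a size factor of the library, with replicates kept apart. The sources used here do not agree on the steps before: the methods give Bowtie, NCBIM37, removal of duplicates with Picard, HTSeq and DESeq2, with a TruSeq kit that does not mark strand, and the submitters' processing notes give bcl2fastq 1.8.4, STAR 2.7, mm10 and DESeq2, with a stranded kit in the labels. Reads of overlapping or antisense genes can therefore not be assigned with certainty, and no gene coordinates are given except those of RefSeq promoters.

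Of the values above 0, 100% were a whole number of reads times the value of 1 read, at a tolerance of 0.01 normalized counts. Values were log2-transformed after adding a pseudocount of 1 and given to limma 3.58.1 under R 4.3.3 (lmFit, then eBayes with trend), keeping genes whose mean reached 10 and 1 spread for the 4 groups. Tests were 2-sided, and p was adjusted over all genes within each of 5 contrasts by the method of Benjamini and Hochberg. The code was tested on simulated counts. As the deposited values are normalized, edgeR 4.0.16 (quasi-likelihood, TMM) and DESeq2 1.42.0 on recovered reads were alternatives, beside pseudocounts of 0.1 and 5, no filter, a mean of at least 100, equal totals or upper quartiles, the libraries of a contrast alone, a replicate block in the contrasts that share replicate numbers, a threshold of 2-fold, and each library left out in turn.

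The 42 genes, the other lists and the tests were chosen with earlier results of these data known. Any of the 42 could be named. Values by library are given for the gene that opens each role, for the 3 largest and 3 smallest changes of a contrast and for genes whose call differs from most of their role. 1 marker gene of another cell type is not reported here and was left out of its list. Of other lists up to 3 genes are named, those called with the largest changes or, with none called, the largest. Aurkb, Kif23, Top2a, Mki67 and Ska1 were given further values by choice. Nothing separates the pools further, so p-values measure the spread between pools only.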

Additional observations from a re-analysis of the deposited data

How the results depend on the processing

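In unstimulated cells the genotype log2 fold change of the 42 genes was negative in 580 of 581 fitted values over 14 settings, and that of Cenpa, -0.47 to 0.14 with single libraries left out, reversed to 0.14 without DKO replicate 1. The number called lower (23) became 14 with every gene above 0 tested and 14 with the libraries of the contrast alone, and ran from 0 to 31 with single libraries left out, with medians of -3.10 to -1.61. A group left with 1 library was assumed to vary like the others. Of all genes, 0.865% were called lower with every gene above 0 tested and 1.65% with the contrast's libraries alone, against 3.35% in the fit reported here. The other 7 settings at 1.5-fold gave 17 to 30 (2.15% to 5.81% of all genes). In all 9 that left out no replicate, 10 genes were called (Cdk1, Ccna2, Ccnb2, Bub1, Bub1b, Birc5, Nuf2, Kif4, Kif15 and Top2a). In stimulated cells all 623 values were negative, and the 0 called became 23 with DESeq2, 1 with the replicate block and 0 to 24 with libraries left out. Of all genes, 0.11% were called lower in stimulated cells in the fit reported here, 1.86% with DESeq2 and 0.279% with the replicate block. For stimulation of WT cells, the 2 called lower (13.1% of all genes) became 1 with equal totals (6.32%) and 10 with the contrast's libraries alone (17.8%). With libraries left out the medians ran from -0.18 to 0.23. The 0 called higher (10.2%) became 2 with equal totals (27.6%) and 3 with the contrast's libraries alone (15%). The median of 0.06 became 0.58 with equal totals, which shifted all genes by 0.51. For stimulation of DKO cells, the 1 called lower became 2 with a mean of at least 100, 2 with equal upper quartiles, 4 with the replicate block and 1 to 6 with libraries left out. The 3 called higher became 0 with every gene tested, 9 with equal totals, 1 with equal upper quartiles, 1 with edgeR, 8 with DESeq2, 0 with the contrast's libraries alone, 14 with the replicate block and 0 to 16 with libraries left out. Of all genes, stimulation of DKO cells had 13% called higher, 5.12% with every gene tested, 24.6% with equal totals and 11.1% with equal upper quartiles. That share was 12.2% with edgeR, 13.1% with DESeq2, 5.71% with the contrast's libraries alone and 15.6% with the replicate block. The share called lower was 12%, and 15.3% (mean of at least 100), 13.9% (upper quartiles) and 15.8% (block). Equal totals and equal upper quartiles moved the median of all genes in the unstimulated genotype comparison by 0.12 and 0.16, and the 42 genes had a median of -2.29 relative to it in both. The interaction gave 0 of the 42 called in each setting. Beyond the construction of each setting (fewer or more genes, fewer libraries), the cause of these changes was not tested. Replicate numbers are shared by pairs of groups, with correlations of replicate differences over 15419 genes of 0.167 (WT and DKO, stimulated) and 0.257 (DKO, both states), which with 2 numbers does not establish pairing, and the unstimulated genotypes share no number. Depth limits the lowest members, called ones included. In unstimulated DKO replicate 2 Cdc25c had 7 reads, Cdk1 and Kif2c 9 each and Ccnb1 10. In stimulated DKO replicate 2 Ccnf had 8.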

Other observations

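The make-up of the mitotic reads also differed between libraries. Top2a and Mki67 together held 51.1% and 51.4% of the reads on the 42 genes in unstimulated WT libraries and 47.2% and 32.4% in unstimulated DKO libraries. After stimulation they held 43.5% and 41.96% in WT and 40.7% and 36.8% in DKO. Cenpa held 2.32% and 3.01% in unstimulated WT and 5.87% and 18.8% in unstimulated DKO libraries, where its own level was close to that of WT while the other members were lower. In stimulated libraries its share was 1.16% and 1.97% in WT and 1.84% and 5.21% in DKO. Within every group, WT and DKO alike, the library with the lower summed level of the 42 genes had the larger share of Cenpa. These shares do not depend on the size factor of a library, and no test was run on them.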
